A study of Mus musculus with 3 samples.

Results

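Fibroblast growth factors (FGFs) form a family of signaling proteins, and the expression of 8 of its members, *Fgf18*, *Fgf10*, *Fgf7*, *Fgf9*, *Fgf2*, *Fgf1*, *Fgf11* and *Fgf13*, was followed through the cell types of the embryonic soft palate, the muscular rear part of the roof of the mouth. The members were taken by gene symbol, 8 of the 32285 genes listed in the count matrices. Single-cell RNA sequencing libraries had been made from soft palates of C57BL/6 mouse embryos at E14.5. Each of the 2 control libraries is labelled only as control, and the study describes its controls as carrying the floxed *Tgfbr1* allele. The single mutant library carried Osr2-Cre;Alk5fl/fl. In it, Cre recombinase made under the *Osr2* locus inactivates the TGF-β type I receptor gene *Tgfbr1* (older symbol *Alk5*) in palatal mesenchyme. By the study's reporter mice, this Cre does not act in muscle cells. How many embryos went into each library is not given in the sources used here.

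In the canonical pathway a secreted FGF binds heparan sulfate and an FGF receptor tyrosine kinase, and the MAP kinase cascade that follows induces feedback genes such as the Sprouty and Dusp6 genes and the Etv transcription factors. FGF7 and FGF10 are classical mesenchymal ligands that act on the epithelial form of FGFR2, and loss of *Fgf10* in mice gives cleft palate. FGF9 is often made by epithelia and signals to mesenchyme, whereas FGF18 is best known from the growth of bone and cartilage. FGF1 and FGF2 lack a classical signal peptide and leave cells by unconventional secretion. FGF11 and FGF13 are FGF homologous factors, which stay inside the cell and bind voltage-gated sodium channels, so they are family members by sequence and not secreted ligands.

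The promoters of *Fgf18* and *Fgf7* are shown because these mesenchymal ligands had different orders of the 3 libraries by level. Each run holds the 250 bases upstream of the annotated start, 5′ to 3′ on the strand of the gene, from RefSeq on GRCm38.p6. Capitals mark CAGAC or its reverse complement GTCTG, the short sequence to which SMAD proteins of the TGF-β pathway can bind.
Fgf18, minus strand, chr11:33147401-33147650: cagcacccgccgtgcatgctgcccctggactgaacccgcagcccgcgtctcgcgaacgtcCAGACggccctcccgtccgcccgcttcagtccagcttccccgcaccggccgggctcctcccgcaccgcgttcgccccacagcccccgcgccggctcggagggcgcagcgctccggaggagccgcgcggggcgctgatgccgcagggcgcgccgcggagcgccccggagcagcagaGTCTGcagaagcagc
Fgf7, plus strand, chr2:126034408-126034657: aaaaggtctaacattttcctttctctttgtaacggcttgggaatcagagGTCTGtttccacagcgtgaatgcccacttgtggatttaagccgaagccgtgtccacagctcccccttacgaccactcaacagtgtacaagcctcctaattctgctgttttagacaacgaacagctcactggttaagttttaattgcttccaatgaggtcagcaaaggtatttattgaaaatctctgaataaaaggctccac
The *Fgf18* stretch held 2 matches and 77.2% G and C, and the *Fgf7* stretch held 1 match and 43.6% G and C. Such a match is common, since 42.2% of 32851 promoters in the same table held at least 1 on either strand within their 300 bases. In the other members the count was 0 for *Fgf10*, 1 for *Fgf9* and *Fgf2* and 3 for *Fgf11*, and the 4 start sites of *Fgf13* held between 0 and 3. *Fgf1* was not examined for sequence here. The study tested a chosen SMAD site in the *Fgf18* promoter region. Neither PCR primer that it used there occurs in the stretch shown, so the marked matches are not taken to be that site.

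On GRCm38 the *Fgf18* gene lies on chromosome 11 from 33117430 to 33147400 on the minus strand, and *Fgf7* on chromosome 2 from 126034658 to 126091185 on the plus strand. *Fgf10* spans chromosome 13 from 118669791 to 118792115, and *Fgf9* spans chromosome 14 from 58070547 to 58112720. *Fgf2* occupies chromosome 3 from 37348346 to 37410108, where the annotated gene Gm43439 overlaps it on the same strand, so its counts could be shared with that gene. *Fgf13* occupies chromosome X from 59062145 to 59568071, where Gm26351 and Mir504 overlap it on the same strand, with the same limit on its counts. *Fgf11* lies on chromosome 11 from 69796068 to 69801857. All 8 genes were detected in every library, in UMIs (unique molecular identifiers, each standing for 1 captured transcript). *Fgf1* had the fewest, 25, 27 and 59 UMIs in control 1, control 2 and the mutant, and the most were 446 of *Fgf7*, 503 of *Fgf2* and 2501 of *Fgf13* in the same order of libraries.

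The libraries held 22624711, 27814907 and 63505144 UMIs in 2816, 4067 and 8690 barcodes for control 1, control 2 and the mutant, of which 2056, 3689 and 7515 cells were kept. Cell types were assigned by counting marker genes, no FGF gene among them, and each name below means "like" the named type by those markers. This gave 1195, 1972 and 3713 palatal mesenchymal cells, beside 187, 266 and 330 epithelial and 75, 85 and 70 myogenic cells. All 6 mesenchymal markers were detected in the summed UMIs of the mesenchymal cells, but the same markers define that gate, so this does not check the tissue label. The mutant library held 307 neuronal and 92 cartilage cells, against 15 and 0 in control 1 and 14 and 1 in control 2. Markers of other cells inside the mesenchymal gate also differed by library: the 7 hemoglobin genes summed to 3818, 989 and 487 CPM (counts per 1000000 UMIs), the 6 myeloid markers to 45.9, 17.7 and 4.75 CPM, and the 6 myogenic markers to 26.7, 10.4 and 3.65 CPM. Pairs of libraries shared 18, 34 and 49 barcodes. The 3′ tags of *Tgfbr1* were at 56.4, 62.6 and 51.7 CPM in mesenchyme. They were not placed relative to the deleted part of the gene, so their level does not check the label.

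**Figure D1:**
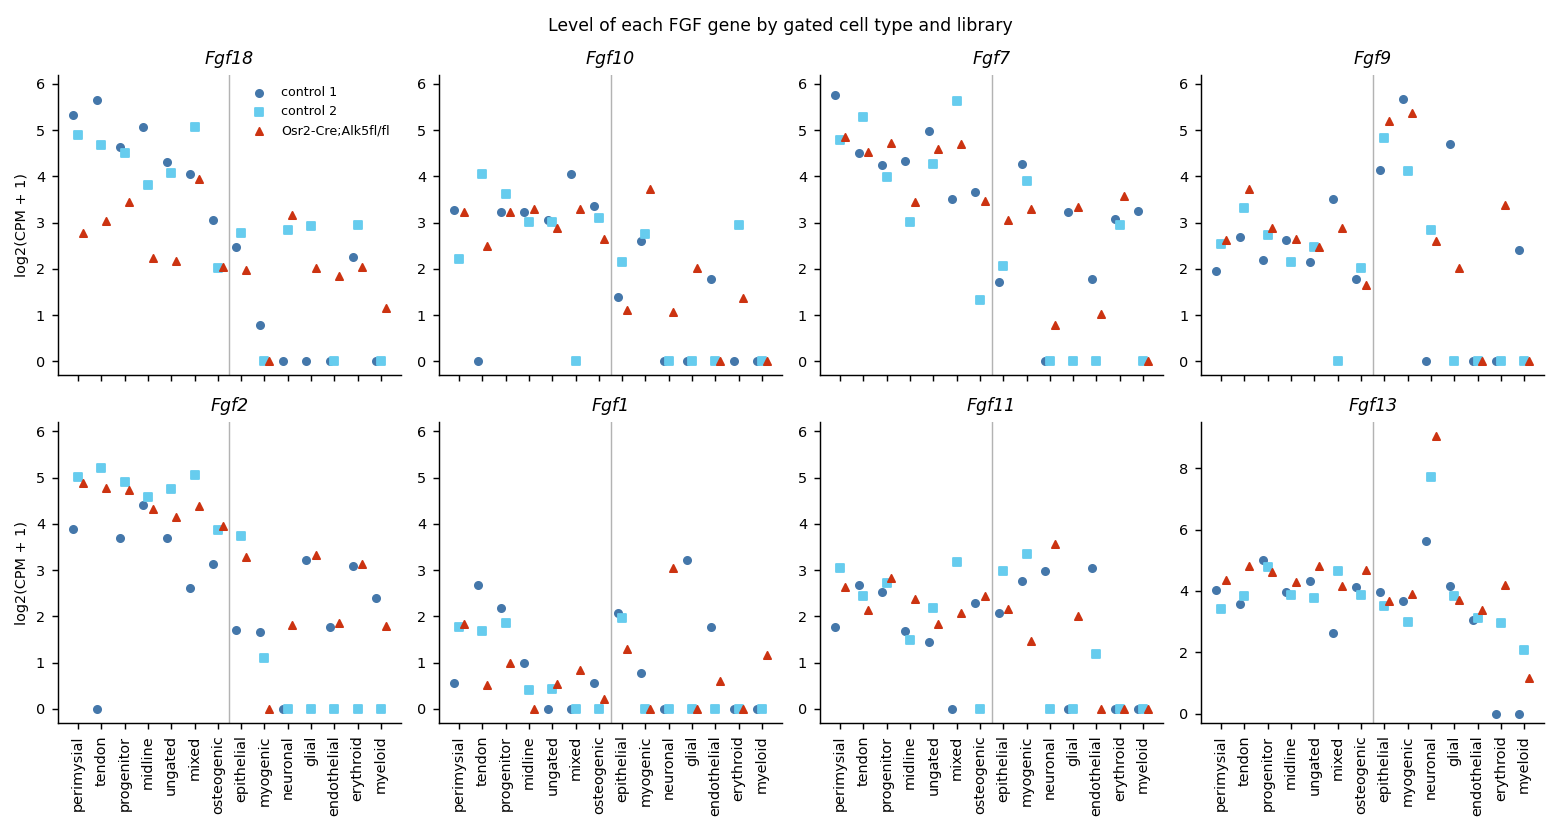
Level of each FGF gene, as log2(CPM + 1) of summed UMIs, in 14 marker-gated cell types, with 1 point per library for control 1, control 2 and Osr2-Cre;Alk5fl/fl; the mesenchymal subtypes stand left of the gray line, and the axis of *Fgf13* is longer. *Fgf9* stood highest by mean level in myogenic and epithelial cells, and *Fgf13* reached 48.4, 210 and 527 CPM in neuronal cells.

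*Fgf18*, a ligand of the Fgf8 subfamily, had most of its UMIs in mesenchymal cells, as did all genes together. Its level there was lowest in the mutant library. In palatal mesenchymal cells it measured 25.9 CPM (exact 95% Poisson interval 23.1 to 29.0, 305 UMIs) in control 1, 16.2 CPM (14.1 to 18.5, 216 UMIs) in control 2 and 5.92 CPM (5.10 to 6.83, 188 UMIs) in the mutant. The 3 intervals did not overlap, and they cover counting error only. The mutant level was 22.9% of control 1 and 36.5% of control 2, a log2 ratio to the control mean of −1.79 beside a gap of 0.68 between the controls. Among 8532 genes of at least 10 CPM in mesenchyme, this ratio ranked 18 from the lowest.

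With 1 mutant library there is no spread within that group and no test of genotype was made, so a gene was counted as past a fold rule when the mutant lay outside both controls and its log2 ratio was at least 1 in size and larger than the control gap. *Fgf18* was the only 1 of the 4 members of at least 10 CPM in mesenchyme to pass it, and 1.59% of all genes of that level passed in either direction. The order of the libraries for *Fgf18* was also the order of the hemoglobin, myeloid and myogenic markers given above. Epithelial, endothelial, mural, neuronal and cartilage markers in the mesenchymal gate did not follow that order. Glial markers there rose instead, at 8.83, 11.3 and 13.0 CPM. The part of RNA from other cells in the *Fgf18* result was not tested. *Fgf18* itself was at 0, 0 and 1 UMI in myeloid cells and at 1, 0 and 0 UMI in myogenic cells. In erythroid cells it was at 3.74, 6.68 and 3.13 CPM, from 1, 1 and 2 UMIs.

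The lower level was seen across mesenchymal subtypes rather than in a single gate. In perimysial cells, the connective tissue cells around the muscles, *Fgf18* was at 39.0, 28.8 and 5.84 CPM, from 81, 24 and 9 UMIs, a log2 ratio of −2.52 with a control gap of 0.43. Tendon cells gave 49.1, 24.6 and 7.20 CPM from only 9, 11 and 17 UMIs, and midline mesenchyme gave 32.6, 13.1 and 3.69 CPM. The libraries held 191, 103 and 155 perimysial, 15, 47 and 193 tendon and 451, 956 and 912 midline cells. The mix of subtypes in pooled mesenchyme thus differed by library. Tfap2b and Eya4 progenitors gave 23.8, 21.7 and 9.91 CPM, and mesenchymal cells of no subtype gave 18.8, 15.8 and 3.47 CPM. The mutant lay below both controls in 6 of the 7 subtypes and its Poisson interval lay below both in 5 of them. The subtypes are cells of the same 3 libraries and do not replicate the single mutant library. The share of all genes with such counts was not worked out. Mixed cells, among the 6, gave 15.5, 32.3 and 14.4 CPM from 3, 4 and 18 UMIs. Osteogenic cells were the exception, with 7.25, 3.04 and 3.11 CPM from 15, 2 and 19 UMIs. Outside mesenchyme, epithelial *Fgf18* was also lowest in the mutant, at 4.52, 5.81 and 2.91 CPM from 14, 22 and 10 UMIs. Its log2 ratio was −0.82 beside a control gap of 0.36, and the Poisson intervals overlapped. The part of mesenchymal RNA in the epithelial values was not tested.

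**Figure D2:**
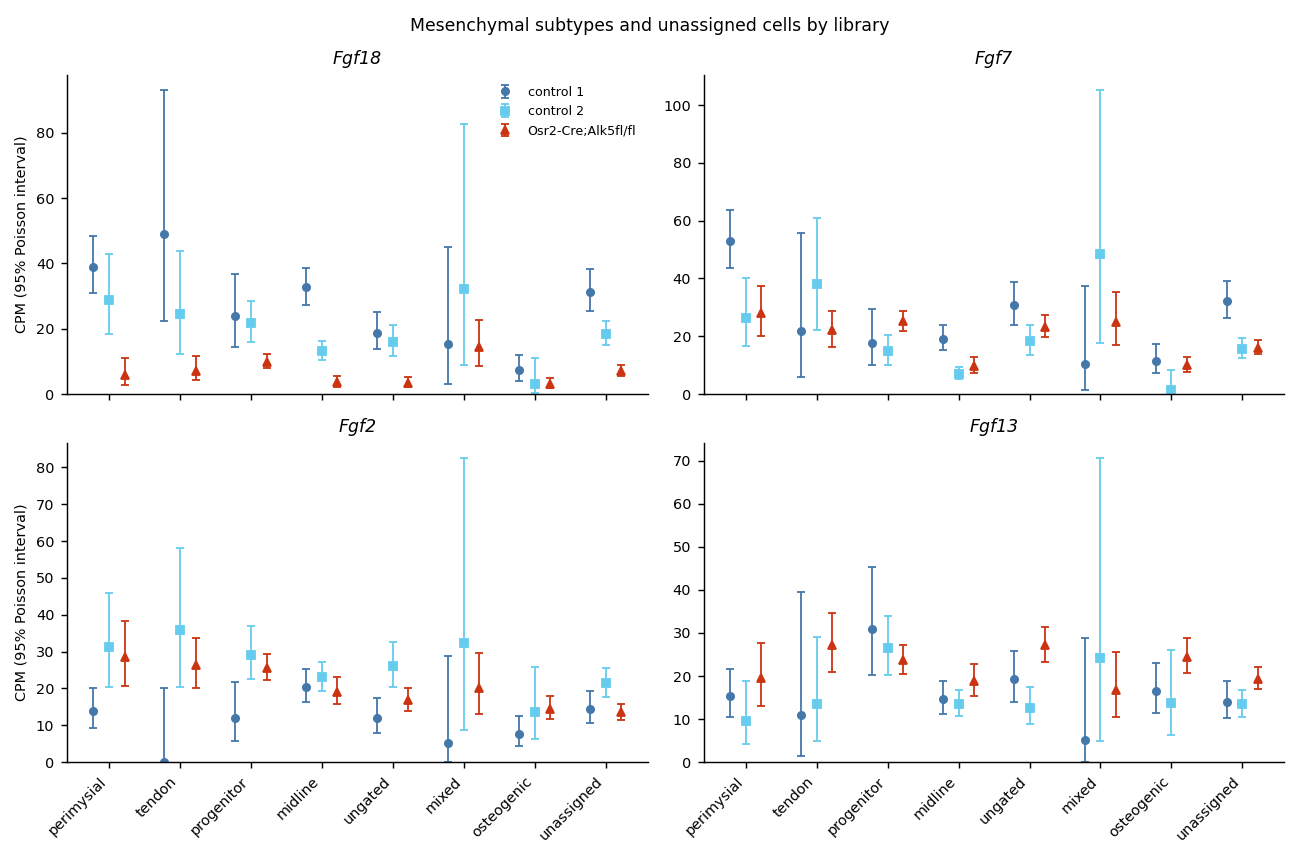
*Fgf18*, *Fgf7*, *Fgf2* and *Fgf13* in the 7 mesenchymal subtypes and in unassigned cells (CPM, 1 point per library, bars are exact 95% Poisson intervals); ungated cells had no subtype and mixed cells more than 1. The mutant point of *Fgf18* lay below both controls in 6 of 7 subtypes, and that of *Fgf7* lay between the controls in 6 of 7.

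The share of cells with an *Fgf18* UMI ran the same way. After each cell was thinned to 2000 UMIs, it was 5.29%, 2.96% and 1.05% of mesenchymal cells (17.1%, 8.32% and 4.50% unthinned). Thinned myeloid cells, which should lack the gene, gave 0 of 41, 0 of 88 and 0 of 138 cells, which allows shares of up to 7.32%, 3.41% and 2.17%. Mesenchymal cells held 72.8%, 63.2% and 60.6% of all *Fgf18* UMIs of the kept cells. They also held most UMIs of all genes together, 11784614 of 20875755, 13329593 of 25369593 and 31758869 of 54209802. Holding most of a gene's UMIs therefore does not by itself mark a mesenchymal gene. Neuronal cells gave 0, 6.19 and 8.0 CPM from 0, 1 and 22 UMIs. In the mutant their Poisson interval, 5.01 to 12.1 CPM, included the 5.92 CPM of mesenchyme. In the 433, 1137 and 2475 cells that no gate took, *Fgf18* measured 31.3, 18.3 and 7.14 CPM.

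**Figure D3:**
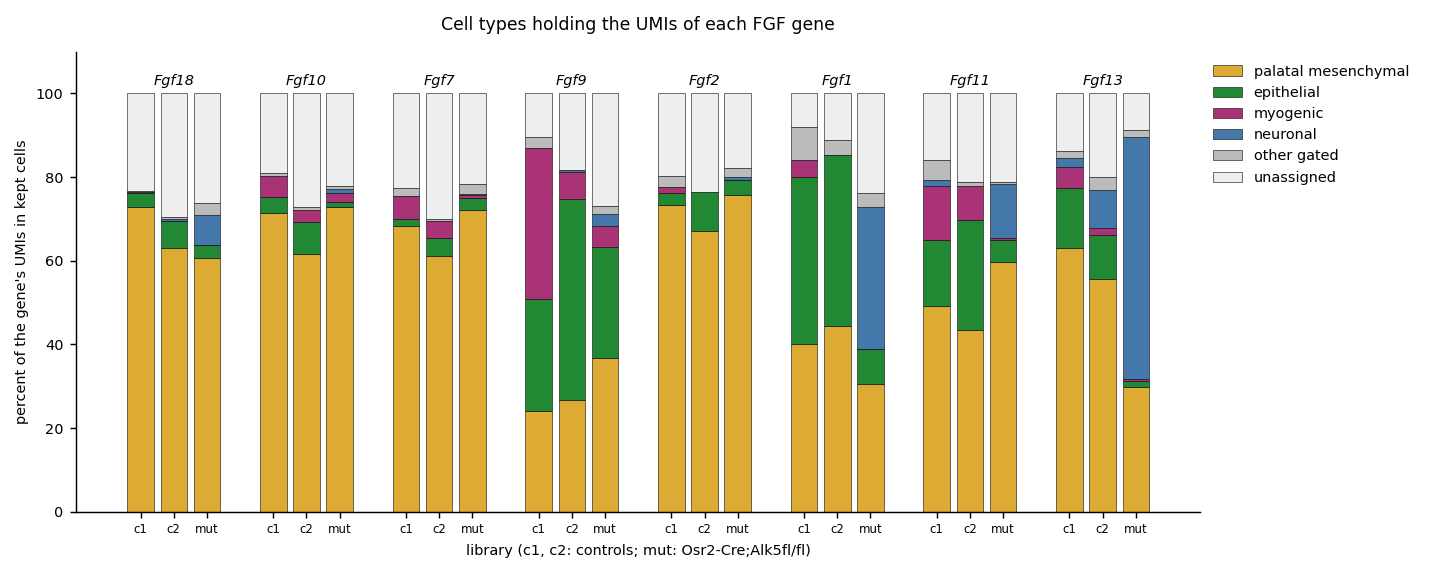
Share of each gene's UMIs (percent of the UMIs in kept cells) found in each gated cell class, as stacked bars for control 1 (c1), control 2 (c2) and the mutant (mut). Mesenchymal cells held most UMIs of *Fgf18*, *Fgf10*, *Fgf7* and *Fgf2* in every library, but only 24.1%, 26.6% and 36.7% of those of *Fgf9*. The same cells held most UMIs of all genes together in every library.

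*Fgf7* and *Fgf10*, the ligands of the Fgf7 subfamily, did not share this pattern. *Fgf7* in mesenchyme was at 25.9, 13.1 and 19.0 CPM from 305, 175 and 603 UMIs, so the mutant lay between controls that differed by 0.98 on the log2 scale. Among the subtypes the mutant lay between the controls in 6 of 7, the progenitors at 17.8, 14.7 and 25.2 CPM being higher. *Fgf10* was at 8.32, 7.80 and 7.15 CPM, below the 10 CPM minimum and nearly level across libraries. The thinned share of mesenchymal cells with an *Fgf7* UMI was 5.03%, 2.91% and 3.68%.

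*Fgf2*, a broad mitogen, was at 14.2, 25.3 and 20.4 CPM in mesenchyme and lay between the controls in 5 of 7 subtypes. *Fgf1* was near the limit of detection there, with 10, 12 and 18 UMIs. The intracellular factor *Fgf13* was at 17.0, 15.5 and 23.5 CPM in mesenchyme, a log2 ratio of 0.53 that exceeded the control gap of 0.14 without reaching the fold rule. *Fgf11*, its relative, was at 2.63, 3.23 and 4.35 CPM. In 59.5% of all mesenchymal genes of at least 10 CPM the mutant lay outside both controls, so lying outside them was common.

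In perimysial cells 1 of 4 members of at least 10 CPM passed the fold rule, *Fgf18*, beside 4.14% of all genes. Neither of the 2 such members passed in osteogenic cells, where 2.50% of all genes did, nor in epithelial cells, where 2.18% did. Epithelial *Fgf9* came nearest, at 16.5, 27.2 and 35.7 CPM, a log2 ratio of 0.76 beside a control gap of 0.73. Its thinned share of epithelial cells was 3.83%, 6.39% and 7.08%.

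**Figure D4:**
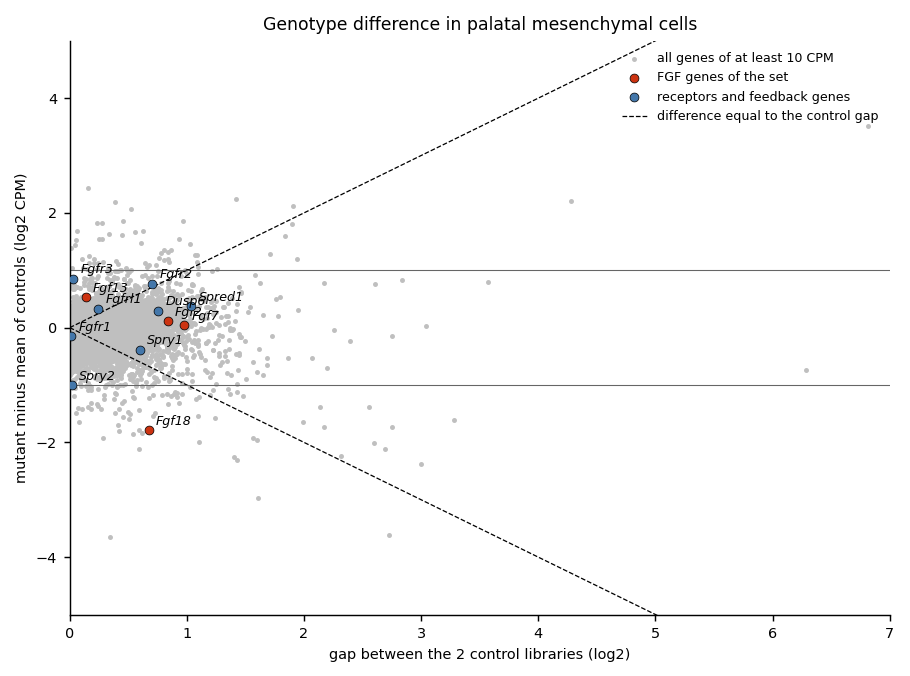
Log2 ratio of the mutant to the mean of the controls (vertical) against the gap between the controls (horizontal, log2) in mesenchyme, for all 8532 genes of at least 10 CPM (gray), the 4 members among them (red) and receptors and feedback genes (blue). Solid lines mark a ratio of 1 and −1 and dashed lines a ratio equal to the gap; *Fgf18*, at −1.79, lay beyond both, and *Fgf7*, *Fgf2* and *Fgf13* did not.

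Cell types could be tested within libraries, for the 14 types with at least 10 cells in every library. Summed UMIs of 14 types in 3 libraries were fitted with edgeR's quasi-likelihood test with library as a block, over 11443 genes with Benjamini-Hochberg adjustment. The p-values measure the spread that is left after library and cell type. It was estimated over all 42 sums, the mutant library among them, and not from 3 replicates of a single contrast. Each contrast set a type against the mean of the other mesenchymal subtypes, all weighted alike whatever their cell number. The log2 differences below therefore need not match ratios of CPM to pooled mesenchyme. Of the members, 6 had enough counts, and *Fgf1* and *Fgf11* did not.

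Epithelial and mesenchymal cells divided the ligands by direction. *Fgf9* was higher in epithelial cells by 2.51 ± 0.21 (SE) on the log2 scale (edgeR adjusted p = 3.13e-13). *Fgf7* was lower by a log2 difference of −2.15 ± 0.30, *Fgf10* by −1.84 ± 0.37, *Fgf18* by −1.76 ± 0.32 and *Fgf2* by −1.32 ± 0.24, all called. In all, 5 of 6 tested members were called, beside 40.7% of all genes, and the median difference was −1.54 for the members against 0.03 for all genes. The 6 mesenchymal markers summed to 105, 325 and 344 CPM in epithelial cells against 976, 982 and 1035 CPM in mesenchyme. *Fgf2* in epithelial cells followed the same low library, at 2.26, 12.4 and 8.72 CPM, and the part of mesenchymal RNA in it was not tested.

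Myogenic cells were the other site of *Fgf9*. It measured 50.1 CPM (39.0 to 63.4, 69 UMIs), 16.2 CPM (8.85 to 27.2, 14 UMIs) and 40.4 CPM (25.6 to 60.6, 23 UMIs), against 3.90, 4.28 and 5.35 CPM in mesenchyme. Against the equally weighted mean of the mesenchymal subtypes, and not this pooled level, the difference was 3.41 ± 0.28 on the log2 scale (edgeR adjusted p = 1.21e-13). *Fgf18* and *Fgf2* were lower in myogenic cells, with 1 and 4 UMIs over the 3 libraries, ratios to mesenchyme of 0.0285 (exact interval 0.000721 to 0.159) and 0.0702 (0.0191 to 0.180). *Fgf7*, at 18.1, 13.9 and 8.78 CPM, and *Fgf10*, at 5.08, 5.78 and 12.3 CPM, were not called there. Thus 3 of 6 tested members were called, beside 47.2% of all genes. Mesenchymal markers summed to 49.3, 45.1 and 43.9 CPM in myogenic cells. The gate keeps out cells with more mesenchymal than myogenic markers, so it limits this sum. The part of mesenchymal RNA in the myogenic *Fgf7* and *Fgf10* was not tested.

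Within mesenchyme, *Fgf7* was higher in perimysial cells than in the remaining subtypes, at 52.9, 26.4 and 27.9 CPM, by 0.95 ± 0.24 on the log2 scale (edgeR adjusted p = 0.0191), the only call among 6 members, beside 1.81% of all genes. That call was lost without control 1 (adjusted p = 0.482) and without control 2 (0.0991), under DESeq2 (0.138) and with doublets kept (0.0593). *Fgf18* differed by 0.63 ± 0.28 and was not called (edgeR adjusted p = 0.402). Osteogenic cells had less *Fgf18*, by −1.62 ± 0.35 (edgeR adjusted p = 0.000718), less *Fgf7*, by −1.19 ± 0.28, and less *Fgf9*, by −1.21 ± 0.41, so 3 of 6 members were called, beside 15.0% of all genes. The *Fgf9* call was lost without control 2 (adjusted p = 0.129) without the mutant (0.622), under DESeq2 (0.0668) and with a stricter gate (0.124).

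*Fgf13* marked the neuronal cells. It was at 48.4, 210 and 527 CPM from 7, 34 and 1449 UMIs, above every other cell type, and differed from mesenchyme by 4.12 ± 0.19 (edgeR adjusted p = 2.23e-22). After thinning, 3 of 15, 4 of 14 and 163 of 300 neuronal cells held a UMI (20%, 28.6% and 54.3%; 26.7%, 71.4% and 86.0% unthinned), against 0 of 41, 0 of 88 and 0 of 138 myeloid cells. The control shares rest on few cells, and the neuronal gates also held markers of other cells. The 6 mesenchymal markers summed to 366, 217 and 96.4 CPM in them, and the 6 epithelial markers to 89.8, 204 and 18.5 CPM. The 3 osteogenic markers summed to 587, 6.19 and 18.2 CPM. The part of such RNA in the spread of *Fgf13* and in the neuronal contrast was not tested. *Fgf18* was not called there, with a log2 difference of −0.11 ± 0.47 (edgeR adjusted p = 0.881). *Fgf7*, *Fgf10* and *Fgf2* were lower in neuronal cells, so 4 of 6 members were called, beside 49.9% of all genes, but without the mutant, which holds most neuronal cells, *Fgf13* alone was called. In order of mean level, the ranges over libraries of neighboring cell types overlapped for every member except at this step between neuronal cells and the next type for *Fgf13*.

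**Figure D5:**
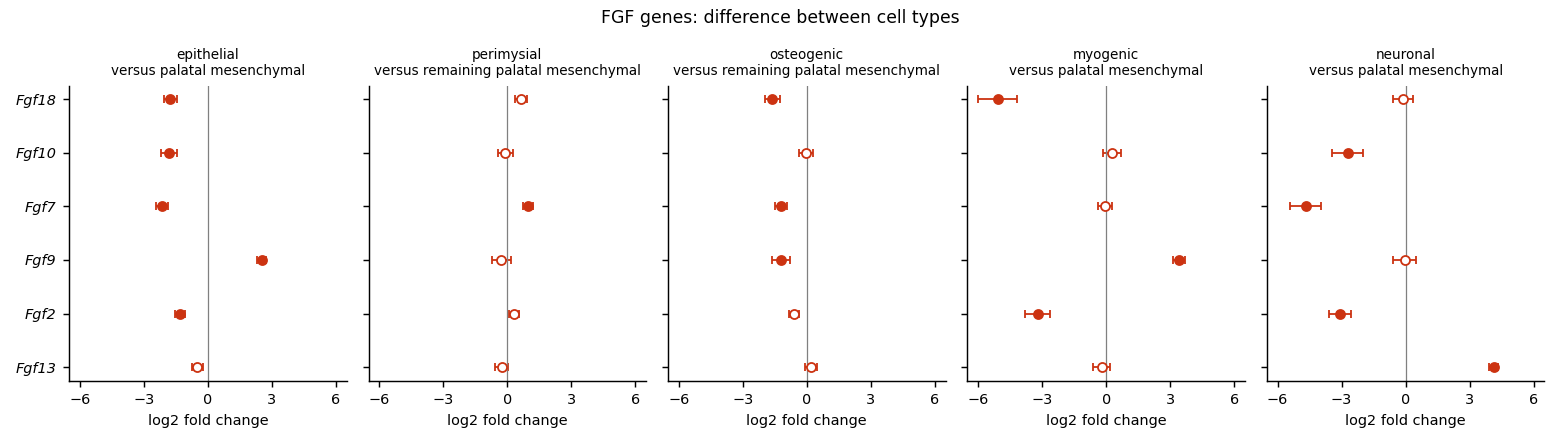
Log2 difference (± SE) of each tested member between the named cell type and its comparison in 5 contrasts over 3 libraries, filled where called at an adjusted p of 0.05. *Fgf9* was higher in epithelial and myogenic cells (2.51 and 3.41) and *Fgf13* in neuronal cells (4.12).

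The 34 other genes of the pathway were read the same way. In mesenchyme 13 of them reached 10 CPM and only *Spry2*, a feedback inhibitor of receptor signaling, passed the fold rule, beside 1.59% of all genes, at 82.5, 81.4 and 40.8 CPM. Its log2 ratio of −1.005 lay at the limit of the rule, and it no longer passed with TMM scaling (−0.90), a stricter gate (−0.97) or without control 1 (−0.995). In perimysial cells 3 of 15 passed, beside 4.14% of all genes: *Spry2* at 168, 115 and 48.0 CPM, the transcription factor *Etv4* at 8.66, 19.2 and 3.24 CPM, and the receptor *Fgfr2*, which was higher at 16.8, 12.02 and 43.4 CPM. *Spry2* and *Fgfr2* passed there under all 8 alternatives and *Etv4* under 5. Alternatives that leave a control out have no control gap, so only the limits of 10 CPM and a log2 ratio of 1 applied to them. Only control 2 held *Etv4* above the 10 CPM minimum. Without that library its log2 ratio was −1.42, but its mean level fell below the minimum. *Dusp6*, a MAP kinase phosphatase, passed in osteogenic cells at 10.1, 13.7 and 24.2 CPM, 1 of 10 beside 2.50% of all genes, but under only 4 of 8 alternatives and not without control 1 (log2 ratio 0.82). *Etv1* passed in epithelial cells at 20.3, 14.8 and 6.97 CPM, 1 of 13 beside 2.18% of all genes. *Spry2* was also lowest in the mutant library in epithelial cells, at 90.7, 93.3 and 50.9 CPM. The mutant lay outside both controls in 61.0% of all epithelial genes of at least 10 CPM. Feedback and target genes of that level did not fall as a group in every cell type. Their median log2 ratio was 0.17 in mesenchyme, −0.37 in perimysial, 0.24 in osteogenic and 0.07 in epithelial cells. The receptor *Fgfr1*, at 221, 223 and 201 CPM, was high in every mesenchymal library, as was *Flrt3*, at 92.2, 107 and 85.9 CPM, and *Spred1*, at 39.9, 81.9 and 74.2 CPM.

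Between cell types, 11 of 21 tested pathway genes were called in the epithelial contrast, 6 higher and 5 lower, beside 40.7% of all genes. *Fgfbp1*, a carrier that releases FGFs from the matrix, was higher by 4.82, the endocrine ligand *Fgf21* by 4.39 and *Fgfr2* by 1.09 on the log2 scale, whereas *Fgfr1* differed by −1.40. Myogenic cells gave 13 calls of 21, beside 47.2% of all genes, among them the ligand *Fgf5*, higher by 6.87, at 21.8, 25.4 and 33.4 CPM, and the muscle receptor *Fgfr4*, higher by 5.74, at 33.4, 47.4 and 43.9 CPM. Perimysial cells gave 2 of 21, beside 1.81% of all genes, *Spry2* higher by 0.72 and *Fgfr2* at −0.88. Osteogenic cells gave 9 of 21, beside 15.0% of all genes, with *Fgfr3* higher by 1.83 and 7 feedback and target genes lower. Neuronal cells gave 11 of 21, *Fgf12* higher and 10 lower, a share near the 49.9% of all genes.

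As a description, the genes most like each member in log2(CPM + 1) over 42 points, 14 types in 3 libraries that share depth and cell composition, were listed by Pearson's r. For *Fgf18* they were *Gm26771* (0.84), the ephrin receptor *Epha4* (0.83) and the homeobox gene *Meox2* (0.83). For *Fgf7* they were *Rtl3* (0.84), *Dlk1* (0.84) and *Gas1* (0.82), and for *Fgf2* *Gm11627* (0.83), the forkhead factor *Foxp2* (0.82) and *Ecrg4* (0.82). For *Fgf9* they were *Parm1* (0.80), *Mycl* (0.73) and *Shisa2* (0.70). For *Fgf13* they were *Fxyd7* (0.89), the G protein subunit *Gnao1* (0.83) and *Olfm1* (0.83).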

How the data were processed

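The authors deposited untransformed UMI counts for 10x 3′ libraries of 3 samples. They had aligned and counted reads with Cell Ranger, for which the submitters' processing notes list version 3.1.0 and build mm10 and the file headers another version. A barcode was kept if it had 500 or more genes and no more than 10% of its UMIs from mitochondrial genes. Scrublet's own threshold marked 0, 0 and 1 barcodes, so the highest-scoring barcodes were removed at a preset rate of 0.8% per 1000 barcodes (61, 132 and 596). A cell entered a class with at least 3 of its markers (mesenchymal, 2), a scoring rule set after marker distributions had been seen and never from FGF values. UMIs were summed per library and type and scaled to CPM. Types were compared with edgeR 4.0.16 in R 4.3.3 and, as an alternative, DESeq2 1.42.0, on types of at least 10 cells in every library, with calls at an adjusted p of 0.05. Genotypes were compared by the fold rule, with 0 UMIs set to 3 before a logarithm, as a floor. Intervals are exact Poisson or Clopper-Pearson. The code was tested on simulated data. Named genes are the 8 members, the pathway genes called or past the rule and the 4 highest, and the 3 most similar genes per member. The members and lists were chosen with earlier results of these data known. Coordinates are from GENCODE M21.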

Additional observations from a re-analysis of the deposited data

Results flagged for a closer look

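Cells gated as cartilage, which are outside every comparison because the controls held 0 and 1 of them, held FGF UMIs in the mutant library. *Fgf7* measured 13.8 CPM from 8 UMIs and *Fgf13* 8.62 CPM from 5 UMIs, both above the limit that a count of 0 allows. With 92 such cells in the mutant, no control level exists to set beside them.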

How the results depend on the processing

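No paired analysis was possible because no label links a control library to the mutant library, of which there was only 1. The *Fgf18* log2 ratio in mesenchyme ran from −2.13 to −1.45 over 8 alternatives, and in perimysial cells from −2.74 to −2.29. The number of members called in perimysial cells was 0 under DESeq2, 0 with doublets kept and 0 to 1 with a library left out, and in neuronal cells it was 1 to 6 with a library left out, 1 without the mutant. The number past the fold rule in perimysial cells was 2 as a mean over cells (*Fgf18*, *Fgf13*), 3 with each cell thinned (with *Fgf2*), and 2 without either control, while the share of all genes past it was 5.41%, 13.3%, 6.55% (without control 1) and 7.12% (without control 2). The number was 1 with a stricter gate in osteogenic cells (*Fgf13*, beside 3.61% of all genes), and 0 to 1 in epithelial cells with a library left out, 1 without control 2 (*Fgf9*, beside 6.89%). With a control left out there was no control gap, so the rule then asked only for 10 CPM and a log2 ratio of at least 1 in size. The counts and shares without a control therefore come from a looser rule. Causes were not tested. Of the values of single genes, 256 cell type results kept their side of the threshold, 11 lost a call and 3 gained a call. Some differences that were not called changed sign between alternatives. *Fgf10* in myogenic cells ran from −0.24 to 0.68 and *Fgf18* in neuronal cells from −2.65 to 0.21 on the log2 scale. Of the genotype values, 203 moved less than the spread of the controls and 37 moved more. *Fgf1* and *Fgf11*, which the filter on low counts kept out, gave 6 calls under alternatives: with no filter, *Fgf1* in epithelial (log2 1.67) and neuronal cells (3.13) and *Fgf11* in myogenic (1.17) and neuronal cells (1.34), and without control 2 both in neuronal cells (3.37 and 1.52).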

Other observations

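The myogenic *Fgf9* signal was divided by the differentiation gene *Myog*, a split chosen after the values had been seen. Cells with a *Myog* UMI gave 45.5, 14.6 and 37.5 CPM of *Fgf9* in control 1, control 2 and the mutant, and cells without gave 75.2, 20.04 and 47.2 CPM, from 16, 5 and 8 UMIs. The intervals of the 2 sets overlapped within each library. Splits by *Pax7* and *Myod1* changed direction between libraries: with and without a *Pax7* UMI, *Fgf9* was at 45.6 and 52.5, 17.6 and 15.3, and 51.2 and 30.4 CPM, and with and without *Myod1* at 45.9 and 87.9, 15.1 and 22.01, and 41.2 and 35.9 CPM. In thinned mesenchymal cells, *Fgf18* and *Fgf7* were found together in 5, 3 and 1 cells, against 3.17, 1.63 and 1.40 cells from the product of their shares, counts too small to tell apart.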
